A study of Homo sapiens with 2 samples.

Results

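The endoplasmic reticulum (ER) is a single membrane drawn into tubules and flat sheets, and the messages described here are those of 10 genes whose proteins give it that form. They are the reticulons RTN2, RTN3 and RTN4, the reticulon-like ARL6IP1, the REEP proteins REEP3, REEP4 and REEP5, the atlastins ATL2 and ATL3, and the sheet protein CKAP4. They were taken by symbol from the 57820 gene IDs counted, and each of the 10 matched 1 ID. The set was selected on function and on the log2 ratios of these same libraries, RTN2 and ARL6IP1 lying near the ends among genes of like read number. The ratios below are therefore descriptions and support nothing beyond themselves.

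The cells were HEK293T, an established line from human embryonic kidney that carries the SV40 large T antigen. One group was given a control siRNA and the other an siRNA against SRα, the receptor subunit encoded by SRPRA that receives ribosomes brought to the ER by the signal recognition particle. The labels name no other change to the line in either group, and give neither the dose of the siRNA nor how long it acted. Each group is 1 mRNA library, called the control library and the SRα library below, so no difference has a replicate check, no test between conditions was possible, and every interval given is a 95% interval of counting error alone. The comparison asks how message levels differ when SRα is depleted.

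Reticulons, REEPs and ARL6IP1 lie in the membrane through long hydrophobic hairpins, which take up more room in the cytoplasmic leaflet and bend it. Atlastins are GTPases that fuse tubules into the 3-way junctions of the network. CKAP4, also called CLIMP-63, reaches across the lumen with a coiled coil and holds sheets at an even width. Mutations in RTN2, ARL6IP1 and several relatives of the set cause hereditary spastic paraplegia, a disease of long motor axons.

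The deposited values count reads per gene, so how far a gene's sequence recurs elsewhere bears on its count. ARL6IP1 and RTN3 are the members with near-identical copies. The lines below, taken from GENCODE 29 transcripts, show 60 coding bases of ARL6IP1 (positions 463 to 522, counted from 1 at the start codon) where its 3 processed pseudogenes are most alike to it, with bases that differ from ARL6IP1 in capitals.
ARL6IP1: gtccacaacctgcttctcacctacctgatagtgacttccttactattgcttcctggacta
ARL6IP1P1: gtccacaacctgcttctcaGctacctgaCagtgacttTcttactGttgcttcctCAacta
ARL6IP1P2: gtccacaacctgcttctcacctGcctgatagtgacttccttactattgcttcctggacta
ARL6IP1P3: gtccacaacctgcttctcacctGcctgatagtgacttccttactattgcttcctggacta

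In this window ARL6IP1P1 differs at 6 bases, and ARL6IP1P2 and ARL6IP1P3 at 1 base each. Over all aligned bases of the coding sequence, identity to ARL6IP1 was 86.3%, 95.5% and 94.2% for the copies in that order, with identical runs of up to 33, 74 and 58 bases. RTN3 has a closer copy, RTN3P1, shown next over positions 2583 to 2642 of the RTN3 coding sequence, where no base differs.
RTN3: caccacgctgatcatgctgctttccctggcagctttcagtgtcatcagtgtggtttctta
RTN3P1: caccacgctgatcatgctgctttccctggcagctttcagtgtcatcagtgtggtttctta

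The aligned part of RTN3P1 was 97.9% identical to RTN3, with an identical run of 151 bases. The reticulons themselves are far apart at this level. The stretch below, from the conserved C-terminal domain that holds the hairpins, is the 60-base window in which RTN3 and RTN2 are most alike to RTN4 (positions 3371 to 3430 of its coding sequence), with differences from RTN4 in capitals.
RTN4: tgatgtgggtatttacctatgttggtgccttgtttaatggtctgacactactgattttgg
RTN3: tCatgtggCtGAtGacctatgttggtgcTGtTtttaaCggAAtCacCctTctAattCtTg
RTN2: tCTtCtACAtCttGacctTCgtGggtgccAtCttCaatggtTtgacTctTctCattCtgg

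RTN3 differs from RTN4 at 17 of these bases and RTN2 at 19. Aligned coding bases were 64.7% identical between RTN3 and RTN4, 57.9% between RTN2 and RTN4, and 68.1% between ATL2 and ATL3, and the longest identical run among these 3 pairs was 23 bases. Of the 30-base stretches in the members' transcripts, 0 were common to 2 reticulons or 2 REEPs, and 7 were common to ATL2 and ATL3. Few reads of 30 bases or more could fit more than 1 member.

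A share of the sequence of some members is not theirs alone. In ARL6IP1, 15.3% of 30-base stretches also occur in other genes, mostly in AC138811.2, an annotated gene of the same strand that covers 546 of 3666 exonic bases. In RTN3 the share was 12.5%, all with RTN3P1 and AC079228.1, and AC079228.1 is not among the gene IDs counted. In the other 8 members the share ran from 0% in REEP4 to 4.50% in ATL3. RTN2, REEP5, ATL3 and CKAP4 overlap exons of genes on the opposite strand over 6.27%, 8.70%, 1.55% and 6.05% of their exonic bases, and the labels do not say whether strand was used in counting. For REEP5 that neighbour is SRP19, itself an SRP protein, with 4 and 7 reads.

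The copies took few reads. ARL6IP1P1, ARL6IP1P2, ARL6IP1P3 and AC138811.2 had 0 reads in both libraries, which allows up to 3 reads each in either. RTN3P1 had 22 reads in the control library and 31 in the SRα library, against 405 and 609 for RTN3. Alignments that were not unique are outside these counts, so reads from shared stretches may be missing from ARL6IP1 and RTN3. Entries that fell in several genes, 129676 in the control file and 203076 in the SRα file, are outside them too. Reads on the bases that ARL6IP1 shares with AC138811.2 may be among these entries, and missing from both genes. The part of such missing reads in the values was not tested.

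The depleted gene checks the labels. SRPRA had 507 and 449 reads, or 204.7 and 116.7 CPM (reads scaled to a fixed library size), and an SRα-to-control ratio of 0.570 (0.501 to 0.648). The libraries held 2445200 and 3896721 reads in genes. NEFL, a marker of the line, and PECAM1, a marker of endothelium, were also chosen but matched no gene ID. All 5 markers of the line that matched, among them VIM and NEFM, averaged at least 1 CPM across the pair of libraries. Their sum was 455.5 and 555.1 CPM, and PAX2 passed on 1 and 7 reads. Of 10 matched markers of blood, liver, endothelium, fibroblasts and muscle, 7 had no read, and the sum was 14.9 and 15.3 CPM, mainly from COL1A1. In bulk RNA, fewer expressing cells and less RNA per cell cannot be told apart.

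All 10 members had a mean of at least 1 CPM, the limit for a gene to be called measured. They held 3116 and 4495 reads in the control and SRα libraries, a summed ratio of 0.928 (0.887 to 0.972). Most of the set stood at nearly the same level in both libraries. The 8 members with at least 20 CPM had ratios of 0.784 to 1.21, and for 6 of these 8 the counting interval held 1. For RTN4 and CKAP4 it lay below 1. Among all 12747 measured genes, the interval lay below 1 for 3.39% and above 1 for 5.46%. RTN2 and ARL6IP1, which have the fewest reads, lay more than 2-fold apart, in opposite directions.

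Levels between genes were compared per kilobase of exon. By mean level REEP5 was the highest, at 72.2 CPM per kb in the control library and 68.6 in the SRα library. REEP4 (45.6 and 43.4), CKAP4 (47.7 and 37.4), RTN4 (38.8 and 34.7), ATL2 (32.7 and 30.8) and RTN3 (28.2 and 27.3) followed. A wide step separated these from ATL3 (7.86 and 8.69), REEP3 (3.92 and 4.75), RTN2 (3.49 and 1.36) and ARL6IP1 (0.991 and 2.48).

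Several neighbours in that order cannot be separated by their counts. In the control library the interval of REEP4 (40.2 to 51.6) overlapped those of CKAP4 (43.3 to 52.5) and RTN4 (35.8 to 41.9). That of ATL2 (29.5 to 36.0) overlapped those of RTN4 and RTN3 (25.6 to 31.1). REEP3 (2.92 to 5.16) and RTN2 (2.32 to 5.05) overlapped as well. In the SRα library REEP4 (39.1 to 48.0) still overlapped CKAP4 (34.3 to 40.8) but not RTN4 (32.4 to 37.1). CKAP4 and RTN4 overlapped there, and ATL2 (28.3 to 33.4) still overlapped RTN4 and RTN3 (25.2 to 29.6). There REEP3 (3.85 to 5.81) and RTN2 (0.795 to 2.18) were apart, and RTN2 overlapped ARL6IP1 (1.73 to 3.45). Over both libraries, REEP5 was above 93.7% of 12592 measured genes of known length, ARL6IP1 above 28.2% and RTN2 above 35.1%. The level of ARL6IP1 may be too low, since reads from its shared stretches may be missing while its length includes those bases. How far this affects its place was not tested. With the length of a single main transcript in place of all exons, ATL2 moved to the third place and CKAP4 to the fifth, and the 4 lowest genes kept their order.

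**Figure D1:**
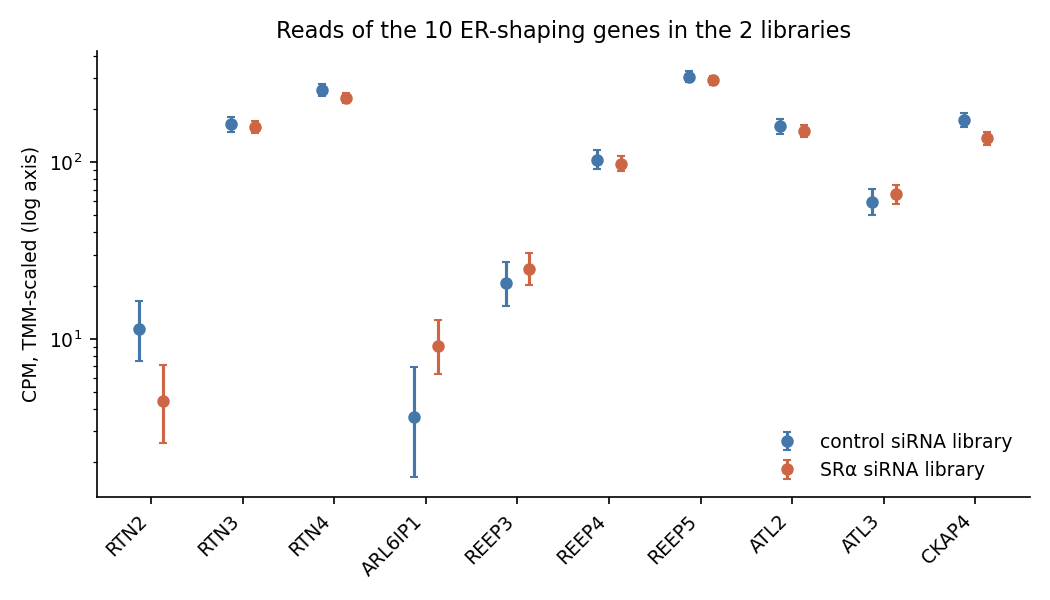
Scaled reads (CPM, log axis) of each of the 10 genes in the control library and the SRα library; points are 1 library each and bars are 95% Poisson intervals of the count. RTN2 and ARL6IP1 sit lowest and have the widest bars, and REEP5 is highest at 305.3 and 290.3 CPM.

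Among the reticulons, RTN4 and RTN3 carried nearly all reads and RTN2 few. RTN4, known as Nogo, shapes tubules in most cells and limits axon growth in the nervous system. It had 638 and 887 reads, or 257.6 CPM (238.0 to 278.4) in the control library and 230.5 (215.6 to 246.2) in the SRα library. The log2 ratio was -0.16 (-0.31 to -0.01), slightly lower after the SRα siRNA, with an interval that ends close to 0 and, with the SRα library thinned to the gene reads of the control library, holds it (-0.32 to 0.02).

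RTN3 shapes tubules and is also a receptor that delivers them to autophagosomes. It had 163.6 CPM (148.0 to 180.3) and 158.3 CPM (145.9 to 171.4), a log2 ratio of -0.05 (-0.23 to 0.14). No difference was detectable at this depth, and the interval leaves room for ratios of 0.852 to 1.10. Its copy RTN3P1 had a log2 ratio of -0.14 (-0.98 to 0.72).

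RTN2, a reticulon known mainly from muscle and neurons, had 28 reads in the control library and 17 in the deeper SRα library. That is 11.3 CPM (7.51 to 16.3) against 4.42 CPM (2.57 to 7.07), and these intervals do not overlap. The log2 ratio was -1.32 (-2.32 to -0.44), or 0.399 of the control level, and the interval runs from 0.201 to 0.739. Of the 1310 genes with a mean of 5.62 to 10 CPM, 0.0763% had a lower ratio.

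Within the reticulon family the split of reads does not depend on how the libraries are scaled. RTN4 made up 59.6% (exact 56.6 to 62.5) of 1071 reticulon reads in the control library and 58.6% (56.1 to 61.1) of 1513 in the SRα library. RTN3 made up 37.8% and 40.3%, and RTN2 2.61% (1.74 to 3.76) and 1.12% (0.656 to 1.79). The summed reads of RTN2, RTN3 and RTN4 had a ratio of 0.909 (0.840 to 0.984).

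ARL6IP1 bends tubule membrane with reticulon-like hairpins. It had 9 reads in the control library and 35 in the SRα library, or 3.63 CPM (1.66 to 6.90) and 9.10 CPM (6.34 to 12.7). The count was higher after the SRα siRNA, and the upper end of one interval overlaps the lower end of the other. The log2 ratio was 1.29 (0.24 to 2.57), or 2.44 times the control level, with an interval of 1.18 to 5.92. In the same range as for RTN2, 99.5% of 1310 genes had a lower ratio.

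For the 3 REEPs of the set the counting intervals all held a ratio of 1, and that of REEP3 is wide. REEP5, an abundant tubule protein also called DP1, had 756 and 1117 reads, or 305.3 CPM (283.9 to 327.9) and 290.3 CPM (273.5 to 307.8). Its log2 ratio was -0.07 (-0.21 to 0.06), the narrowest interval in the set. REEP4 had 103.4 and 98.2 CPM and a log2 ratio of -0.07 (-0.31 to 0.16).

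REEP3, which acts with REEP4 to clear ER membrane from chromosomes in mitosis, had 51 and 96 reads, or 20.6 CPM (15.3 to 27.1) and 24.9 CPM (20.2 to 30.5). The intervals overlap, and the log2 ratio was 0.28 (-0.23 to 0.80). REEP3 was 4.80% of the reads of these 3 REEPs in the control library and 6.03% in the SRα library, with overlapping exact intervals (3.59 to 6.26 and 4.91 to 7.32). REEP5 was 71.1% and 70.2%. The summed ratio of the 3 genes was 0.963 (0.891 to 1.04).

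Both atlastins were near their control level. ATL2, a fusion GTPase of cells outside the nervous system too, had 395 and 578 reads, or 159.5 CPM (144.2 to 176.0) and 150.2 CPM (138.2 to 163.0). Its log2 ratio was -0.09 (-0.27 to 0.10). ATL3, which also serves as a receptor for the autophagy of tubules, had 148 and 254 reads, or 59.8 CPM (50.5 to 70.2) and 66.0 CPM (58.1 to 74.6), and a log2 ratio of 0.14 (-0.15 to 0.45). ATL2 made up 72.7% (68.8 to 76.4) of atlastin reads in the control library and 69.5% (66.2 to 72.6) in the other. The summed ratio was 0.986 (0.884 to 1.10), and no difference was detectable at this depth.

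CKAP4, the only sheet protein of the set, was the well-read member farthest from its control level. It had 430 reads in the control library and 524 in the SRα library, or 173.6 CPM (157.6 to 190.9) and 136.2 CPM (124.8 to 148.4). The intervals of the libraries do not overlap. The log2 ratio was -0.35 (-0.54 to -0.16), a ratio of 0.784 (0.689 to 0.893). Of the 1014 genes with a mean of 100 to 177.8 CPM, 0.394% had a lower ratio.

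**Figure D2:**
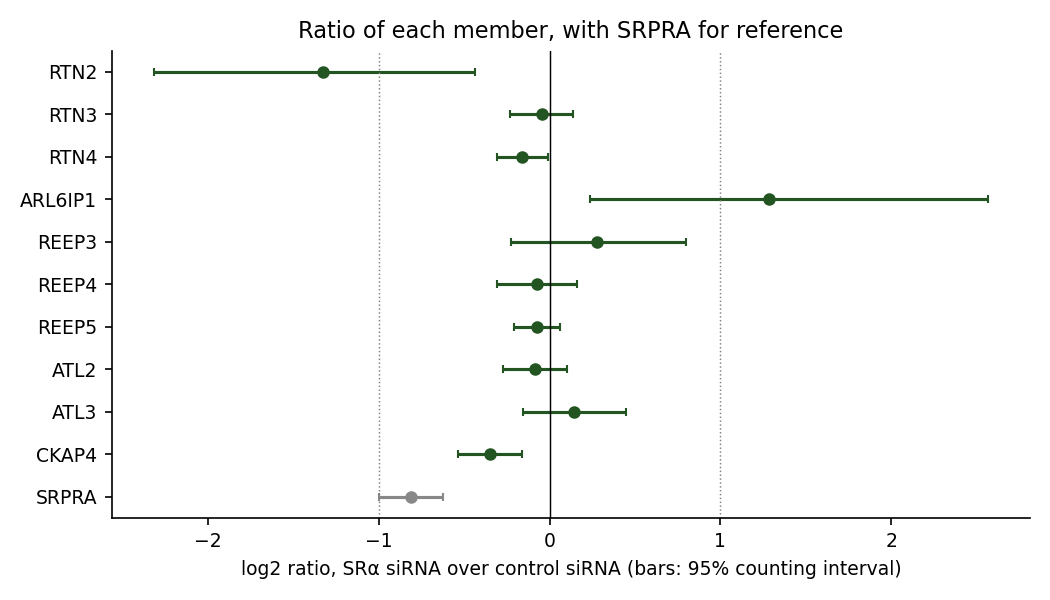
Log2 ratio of SRα siRNA over control siRNA for the 10 genes and, in grey, SRPRA; points are the ratio of 1 library to 1 library, bars are 95% counting intervals, and dotted lines mark 2-fold. RTN2 at -1.32 and ARL6IP1 at 1.29 lie past the dotted lines, and the other members lie between -0.35 and 0.28.

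Over the set, 1 of 10 genes was at least 2-fold higher, beside 2.15% of the 12747 measured genes, and 1 was at least 2-fold lower, beside 2.57%. The counting interval lay above 0 for 1 member, ARL6IP1, beside 5.46% of measured genes. It lay below 0 for 3 members, RTN2, RTN4 and CKAP4, beside 3.39%. Ratios were below 0 for 7 of 10 members, beside 48.6%. The median log2 ratio was -0.07 for the members and 0.01 for all measured genes. Because the choice of genes used this contrast, nothing is read from these shares.

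Ratios scattered more among genes with few reads. For genes with a mean of 5 to 20 CPM, where RTN2 and ARL6IP1 lie, the standard deviation of log2 ratios was 0.41. Of these 3297 genes, 0.819% lay 2-fold or more above and 0.910% lay 2-fold or more below their control level. For the 6807 genes of at least 20 CPM the standard deviation was 0.19, with 0.0735% that far above and 0% (0 genes) that far below. Against genes of like read number, RTN2, ARL6IP1, CKAP4 and RTN4 lay outside the central range from the 5th to the 95th percentile. The other 6 members lay inside it. By its definition this range leaves out 5% of genes at each end. The members were picked with their ratios known, so nothing is read from how many lie outside.

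**Figure D3:**
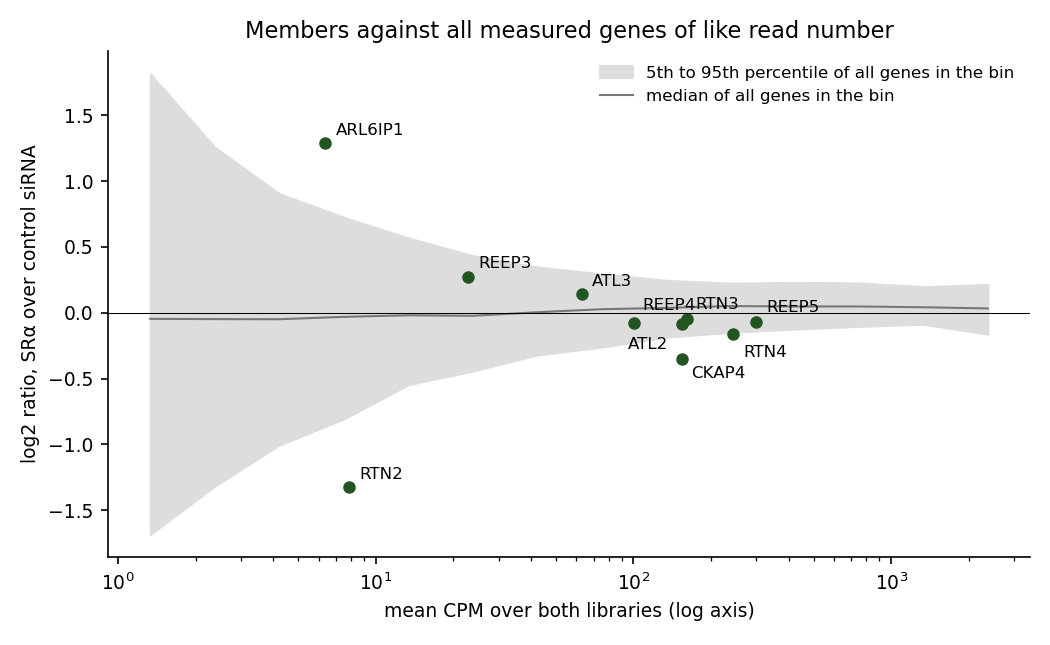
Log2 ratio of SRα siRNA over control siRNA against mean CPM (log axis); the grey band runs from the 5th to the 95th percentile of all measured genes in bins of mean CPM, the grey line is their median, and green points are the 10 genes. RTN2, ARL6IP1 and CKAP4 stand clear of the band and RTN4, at -0.16, lies just under its edge of -0.15.

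Features of the proteins do not come from these counts. Translated from the longest coding sequence, the reticulons and atlastins each held 2 or 3 predicted hydrophobic segments (windows of 19 residues with a mean Kyte-Doolittle value of at least 1.6). Their longest hydrophobic stretch was 45 to 47 residues, and that of ARL6IP1 was 52. REEP5 reached 34 residues, REEP4 27 and CKAP4, which crosses the membrane once, 25. REEP3 had 0 segments past this limit. The proteins range from 189 codons in REEP5 to 1192 in RTN4.

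The ends of the genes' coding sequences differ too. In RTN3, RTN4 and ARL6IP1, 1 segment lay in the last 50 residues, and in the other 7 members 0 did. A signal-like stretch in the first 25 residues was found in REEP3 and REEP4, and in 0 of the other 8. Whether these features go with the ratios was not tested.

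Base composition varied widely in the set. The longest transcript held 35.2% G and C in REEP3, 41.3% in ARL6IP1 and 62.7% in RTN2, where the median measured gene had 47.6%. RTN2, REEP4 (62.2%) and CKAP4 (55.9%), the members richest in G and C, all had ratios below 0, and the 3 members above 0 lay between 35.2% and 41.3%. REEP4 differed little in log2 ratio (-0.07) from ATL2 (-0.09), which held 38.5%. The genes were picked with their ratios known, so no relation is read from these values, and the part of base composition in the ratios was not tested.

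The other genes of ER shape and its surroundings were described in 6 lists that hold 50 genes together, 45 of them measured, and these lists too were drawn up with earlier results of these data known. Of these 45, 25 had ratios above 0 and 20 below, beside 48.6% of measured genes below 0, with a median log2 ratio of 0.01. The counting interval lay above 0 for 5 of the 45, beside 5.46% of measured genes, and below 0 for 3, beside 3.39%. Of the 45, 4 were 1.5-fold or more above their control level, beside 6.55% of measured genes, and 2 that far below it, beside 6.97%. A 2-fold difference was reached by 1, REEP1, which was higher. Of measured genes, 2.15% lay that far above their control level and 2.57% that far below it.

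Among the 5 relatives left out of the set, 2 REEPs had counting intervals above 0, beside 5.46% of measured genes. Both averaged 5 to 20 CPM, where the standard deviation of log2 ratios over all genes was 0.41. REEP1, a tubule protein of neurons that is mutated in spastic paraplegia, had 17 reads and 54 reads, with 1.01 (0.22 to 1.91) as its log2 ratio. REEP6, known from rod photoreceptors, had 28 and 80 reads and stood at 0.87 (0.24 to 1.55). REEP2, the most read of these relatives, had 0.12 (-0.37 to 0.63) from 55 and 93 reads. RTN1, the neuronal reticulon, had -0.05 (-0.96 to 0.90) from 18 and 27 reads, and ATL1, the neuronal atlastin, had 0.10 (-0.88 to 1.13) from 15 and 25. All 5 relatives were measured, 4 with ratios above 0 and 1 below, beside 48.6% of measured genes below 0. REEP6 was chosen for mention after its value was seen.

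Tubule and junction proteins outside these families lay between log2 ratios of -0.40 and 0.40. Of 12 measured, 4 had ratios above 0 and 8 below, with a median of -0.08. Of all measured genes, 48.6% had ratios below 0. The counting interval lay above 0 for 2 of the 12, RAB3GAP1 and RAB3GAP2, beside 5.46% of measured genes. It lay below 0 for 0 of the 12, beside 3.39%. TMEM33, a reticulon-binding membrane protein and the most read, had 292.4 and 266.9 CPM and -0.13 (-0.27 to 0.01). ZFYVE27, known as protrudin, was lowest at -0.40 (-0.89 to 0.09), and RAB3GAP2 was highest at 0.40 (0.10 to 0.70). RAB3GAP1, which forms the exchange factor of RAB18 together with RAB3GAP2, had 0.22 (0.02 to 0.43). LNPK, the lunapark protein that steadies the junctions atlastins make, had 0.00 (-0.30 to 0.31).

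The 4 other sheet genes had log2 ratios of -0.15 to 0.05. KTN1, a kinectin of rough sheets, had 622 and 1002 reads and 0.05 (-0.09 to 0.20), and its interval does not overlap that of CKAP4. The intervals of the other 3, RRBP1, JAGN1 and TMEM170A, do overlap it, and the difference from CKAP4 was not tested. RRBP1, the ribosome-binding sheet protein, had 0.04 (-0.17 to 0.25), and TMEM170A, the lowest of 4 with 20 and 28 reads, had -0.15 (-1.03 to 0.76). The median of the 4 sheet genes was 0.02.

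Receptors of ER autophagy and the proteins they bind went both ways, with 5 of 9 measured genes above 0, 4 below and a median of 0.02. MAP1LC3B, an LC3 protein, the kind that RTN3 binds on autophagosomes, was the most read of them, with 823 and 2132 reads and 0.74 (0.62 to 0.86) as its log2 ratio. Its near-identical copy MAP1LC3B2 had 0 reads in both libraries, so the value is uncertain. GABARAPL1, of the same protein family and bound by ATL3, was lowest at -0.67 (-1.15 to -0.20). The counting interval lay above 0 for 1 of the 9, MAP1LC3B, beside 5.46% of all measured genes. It lay below 0 for 3, GABARAPL1, GABARAPL2 and TEX264, beside 3.39%. By direction alone, 4 of the 9 were below 0, beside 48.6% of all measured genes.

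Receptors and partners of RTN4 were thinly read. RTN4R, the Nogo receptor, had 4 and 11 reads and the highest ratio at 0.77 (-0.93 to 2.93), and S1PR2, also a receptor for Nogo-A, had 7 and 6 reads and the lowest at -0.80 (-2.71 to 0.94). RTN4IP1, a mitochondrial protein that binds RTN4 and the most read of 8, had -0.50 (-1.07 to 0.08). At this depth no difference was detectable for these 3 genes. Contact site proteins ran from STIM1, the ER calcium sensor, at -0.32 (-0.71 to 0.06) to STIM2 at 0.33 (-0.17 to 0.86), with the lipid carrier ESYT1, the most read of 7, at -0.05 (-0.21 to 0.11).

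**Figure D4:**
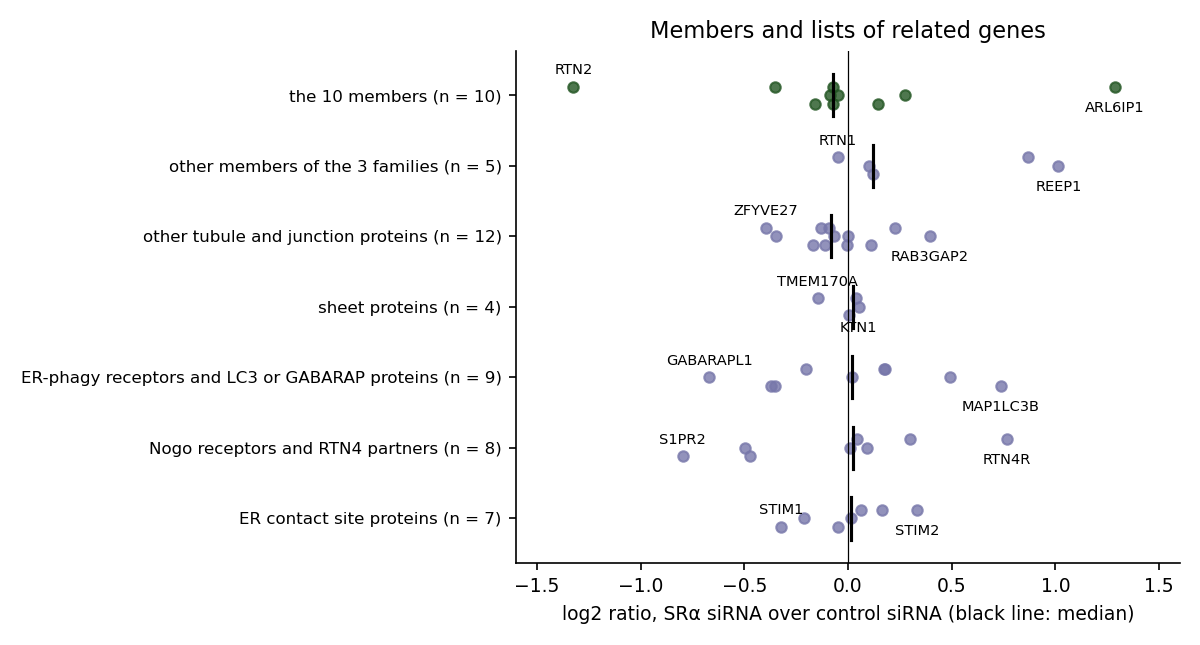
Log2 ratio of SRα siRNA over control siRNA for the 10 genes (green) and for each measured gene of the 6 related lists (blue); points are genes, black lines are medians, and the lowest and highest gene of each row is named. The medians lie between -0.08 and 0.12, and RTN2 and ARL6IP1 are the outermost points.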

How the data were processed

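Messenger RNA was extracted with TRIzol and made into libraries with a stranded TruSeq kit, per the labels' protocols. The submitters' processing notes name STAR 2.5.2b, cutadapt and the genome build hg19. The authors deposited raw counts, as whole numbers for each Ensembl gene ID. The sources used here do not name the read length, the counting program, its strand setting or the annotation release. Alignments that were not unique, 79.6% and 76.5% of all entries in the control and SRα siRNA files, are listed apart and were kept out with the other summary lines.

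Symbols were matched for 51996 of 57820 IDs. Libraries were scaled with edgeR 4.0.16 TMM factors (R 4.3.3), giving effective sizes of 2476276 and 3847820 reads. Log2 ratios used a prior count of 0.5 scaled to depth. Ratio and share intervals are exact binomial (Clopper-Pearson), and CPM intervals exact Poisson, at 95%. Because each group is 1 library, intervals cover counting error only, with each read taken as independent. Reads carry no molecular identifiers, so copies of the same molecule cannot be told apart and the intervals may be too narrow. The procedure was tested on simulated counts that held counting error alone, so differences between cultures were outside that test.

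Lengths, overlaps, G and C content and sequences come from GENCODE 29 by gene ID. Its build is GRCh38, so coordinates are left out. The members and lists were chosen with earlier results of these data known. The text names all 10 members, their copies and, per list, the lowest, highest and most-read gene. REEP6, ATL1, LNPK, RRBP1, JAGN1, RAB3GAP1, TEX264 and GABARAPL2 were added after their values were seen. Alternatives were library totals, upper quartile factors, size factors of DESeq2 1.42.0, a prior count of 2, thinning, no filter and a mean of at least 5 CPM.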

Additional observations from a re-analysis of the deposited data

How the results depend on the processing

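Every member kept the direction of its ratio under each of 5 settings of scaling, prior count and depth. RTN2 ran from -1.36 to -1.04 and ARL6IP1 from 1.19 to 1.29, both past 2-fold throughout, and CKAP4 from -0.39 to -0.34. No scaling and no prior count moved a member by more than 0.10 (log2). Thinning of the SRα siRNA library to the reads of the control siRNA library was a single random draw, so its values also carry the scatter of that draw. It left 2 in place of 3 members with an interval below 0. The interval of RTN4 then ran from -0.32 to 0.02. Those of RTN2 (-2.14 to -0.07) and ARL6IP1 (0.07 to 2.57) then ended close to 0. Thinning also moved the median of the 5 relatives from 0.12 to 0.29 and that of the Nogo receptors and partners from 0.03 to -0.14. The median of the ER autophagy list went from 0.02 to -0.094 without a filter and to -0.094 with a mean of at least 5 CPM, since the first adds genes and the second removes some. Of the medians of lists, 8 recomputed values had the other sign, so no direction is given for a list with a median near 0. No paired analysis was possible because each group is 1 library. RTN2 and ARL6IP1 rest on 28 and 17 reads, and on 9 and 35.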
